A study of Mus musculus with 6 samples.

Results

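The comparison described here set 2 arrays of miR-17-92 deficient mouse CD4 T cells carrying an empty retroviral vector against 2 arrays of wild-type cells carrying the same vector, 4 of the 6 arrays of the study. Members were taken by the sample titles, and all 22626 probe sets other than the 64 control probe sets were analysed. The arrays measured mRNA, as biotin-labelled RNA of 1 sample on each array read as brightness per probe set. Both groups were CD4+CD25- T cells, helper T cells sorted by flow cytometry without the cells that bear the interleukin-2 receptor chain CD25. Both were stimulated on a plate through CD3 and CD28, infected with retrovirus, grown in 10% serum at 7% CO2 and collected after 5 days. Wild-type cells came from B6 mice (WT B6), for which the labels name neither a floxed allele nor Cre. Deficient cells came from B6 mice with the genotype miR-17-92f/f CD4-cre+, in which the cluster lies between recombination sites and Cre is driven by Cd4 sequences. This design is meant to delete the cluster while T cells develop in the thymus. Because only the deficient mice carry Cre and the floxed alleles, the effects of Cre, of the floxed alleles and of the missing microRNAs cannot be told apart in this comparison. The labels call the 2 arrays of a group biological replicates, but whether they came from separate mice, and the age of the mice, is not given in the sources used here. P-values then measure the spread between these arrays.

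MicroRNAs are short RNAs that guide Argonaute proteins to mRNAs, mostly through pairing of a short seed near their 5′ end, and lower the stability and translation of those mRNAs. The miR-17-92 cluster is a single primary transcript that yields several microRNAs of a few seed families, was first known for its amplification in lymphoma, and is induced when T cells are activated. In T cells it is known to favour proliferation, survival and effector differentiation. Loss of a microRNA is therefore looked for first among mRNAs that it represses, and the study asked which transcripts rise without the cluster.

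The cluster lies on chromosome 14 of the mouse genome, on the plus strand, from the first base of miR-17-5p at 115043684 to the last base of miR-92a-3p at 115044496 (RefSeq sequences, assembly GRCm38.p6). The 6 principal mature microRNAs are shown because their seeds, bases 2 to 8, in capitals, define the families of mRNAs that they pair with.
mmu-miR-17-5p: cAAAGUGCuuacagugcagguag
mmu-miR-20a-5p: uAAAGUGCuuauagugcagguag
mmu-miR-18a-5p: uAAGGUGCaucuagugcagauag
mmu-miR-19a-3p: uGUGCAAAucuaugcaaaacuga
mmu-miR-19b-3p: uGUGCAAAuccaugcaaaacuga
mmu-miR-92a-3p: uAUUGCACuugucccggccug
The microRNAs miR-17-5p and miR-20a-5p share 1 seed, AAAGUGC, and miR-19a-3p and miR-19b-3p share another, GUGCAAA. The seeds AAGGUGC of miR-18a-5p and AUUGCAC of miR-92a-3p stand alone in the cluster. Transcripts of the cluster itself were not analysed here, so the deletion was not checked on these arrays.

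Without the cluster, the activated T cells held less mRNA for interleukin-10, for the transcription factors Prdm1 and Batf and for the receptors Cxcr4, Ctla4 and Il7r. Of the T helper 2 program 8 of 17 genes fell, beside 2.53% of all genes. Its median was -0.74 and ranged from -0.92 to -0.41 when 1 array was left out. The T helper 1 program held 2 calls of 15, both lower, with a median of -0.48. The deficient cells held more mRNA for genes of the type I interferon response, of which 11 of 36 rose, of DNA replication, of which 24 of 40 rose, and of ribosome biogenesis, of which 17 of 32 rose, beside 3.16% of all genes. Without deficient array 2 none of these 3 groups held a call, and replication held none without wild-type array 1 and 1 without deficient array 1. Of 39 measured genes reported as targets of the miR-17 and miR-20 seed family, 2 rose and 5 fell. Of the 27 genes called whichever of the 4 arrays was left out, 23 were lower and 4 higher.

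A probe set is a group of short probes for 1 transcript, and its value is on a log2 scale, on which a difference of 1 is a 2-fold difference. Signed differences are deficient minus wild type throughout, and the standard error (SE) of each comes from a linear model over all 6 arrays, in which the study's 3 groups share one estimate of spread. A probe set was called at a Benjamini-Hochberg adjusted p under 0.05 in limma's moderated test over all 22626 probe sets. By this rule 1091 probe sets were called (4.82%), 641 of them higher in deficient cells (2.83%) and 450 lower (1.99%). Of the 12393 genes, each read from its brightest probe set, 704 were called (5.68%), 391 higher (3.16%) and 313 lower (2.53%). At an unadjusted p under 0.05, 2658 genes passed. These shares are the background for every gene list below.

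Most differences were small, and the large ones were mostly decreases. The median absolute difference over all genes was 0.15, and the 5th and 95th percentiles of the signed difference lay at -0.45 and 0.53. Genes called higher had a median difference of 0.67 (1.60-fold), and 47 of the 391 (12.0%) reached 2-fold. Genes called lower had a median absolute difference of 0.79 (1.73-fold), and 105 of the 313 (33.5%) reached 2-fold. Differences of 2 or more log2 units were called in 6 genes in the upward direction and 15 in the downward one. The 6 were Ifitm3, Rtp4, Drc1, Il2, Ifit1 and Ms4a4c, of which Ifitm3 and Ifit1 are named after their values were seen. The share of genes called rose with brightness, from 0.382% of the 2354 genes with a mean level under 4 to 12.9% between 8 and 10, so that little can be said of transcripts with faint probe sets.

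**Figure D1:**
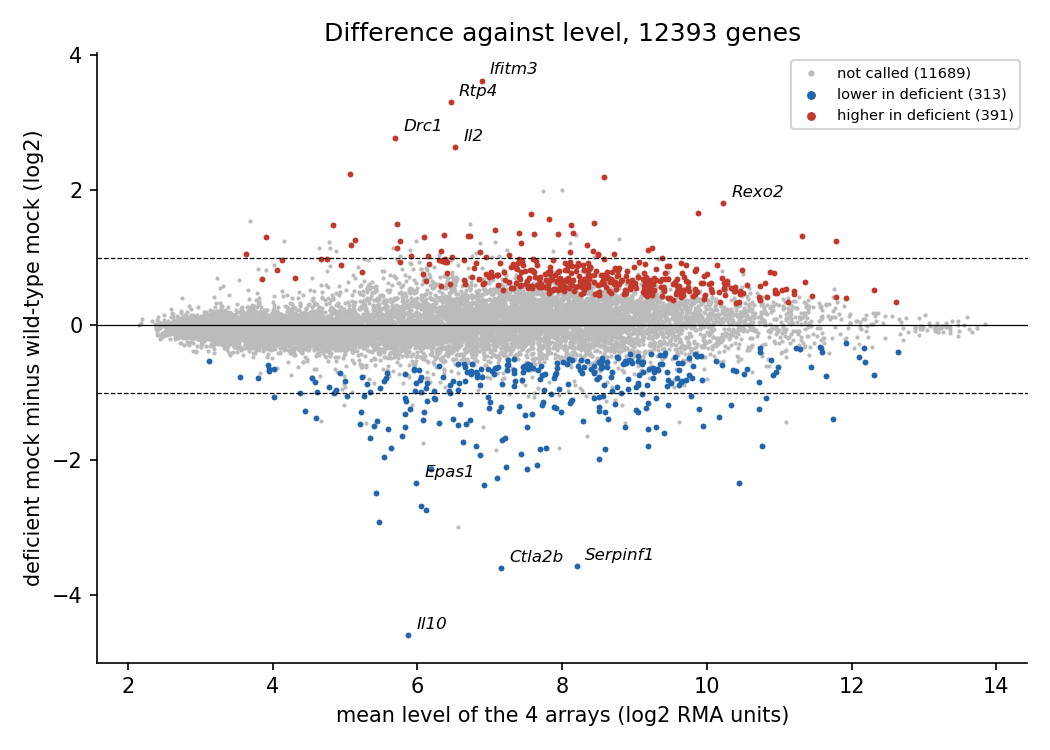
Difference between the groups (deficient mock minus wild-type mock, log2) against the mean level of the 4 arrays (log2 RMA units), 1 point for each of 12393 genes, with dashed lines at a 2-fold difference. The 391 genes called higher form a dense band between 0.5 and 1, while the 313 called lower reach further from 0, down to Il10 at -4.59.

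In all 704 called genes (5.68%) both deficient arrays lay on the same side of both wild-type arrays, which follows from calling genes by their difference against the spread of these arrays. The same held for 6189 of all 12393 genes (49.9%). All 4 differences between a deficient and a wild-type array were at least 0.5 in the same direction for 239 genes higher and 243 genes lower in deficient cells. At a minimum of 1 these numbers were 22 and 57, and at a minimum of 2 they were 3 and 7. With 2 arrays a group an exact permutation test on 1 gene cannot give a two-sided p below 1 in 3, so the calls rest on the spread that limma shares across genes and groups.

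Array pairs with the same replicate number in their titles gave the same sign of difference in 8733 genes (70.5%), and their differences correlated across genes with r = 0.73, a description over 12393 genes that are not independent. With the numbers crossed, the shares were 57.5% and r = 0.46. Within a group the 2 arrays differed by a median of 0.15 (wild type) and 0.14 (deficient), and by more than 1 in 48 and 64 genes. Between groups, differences of more than 1 were found in 222 genes for replicate 1, in 265 for replicate 2, in 209 for deficient 1 against wild type 2 and in 396 for deficient 2 against wild type 1. The arrays wild type 1 and deficient 2 thus stood farthest apart, and wild type 2 and deficient 1 closest.

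**Figure D2:**
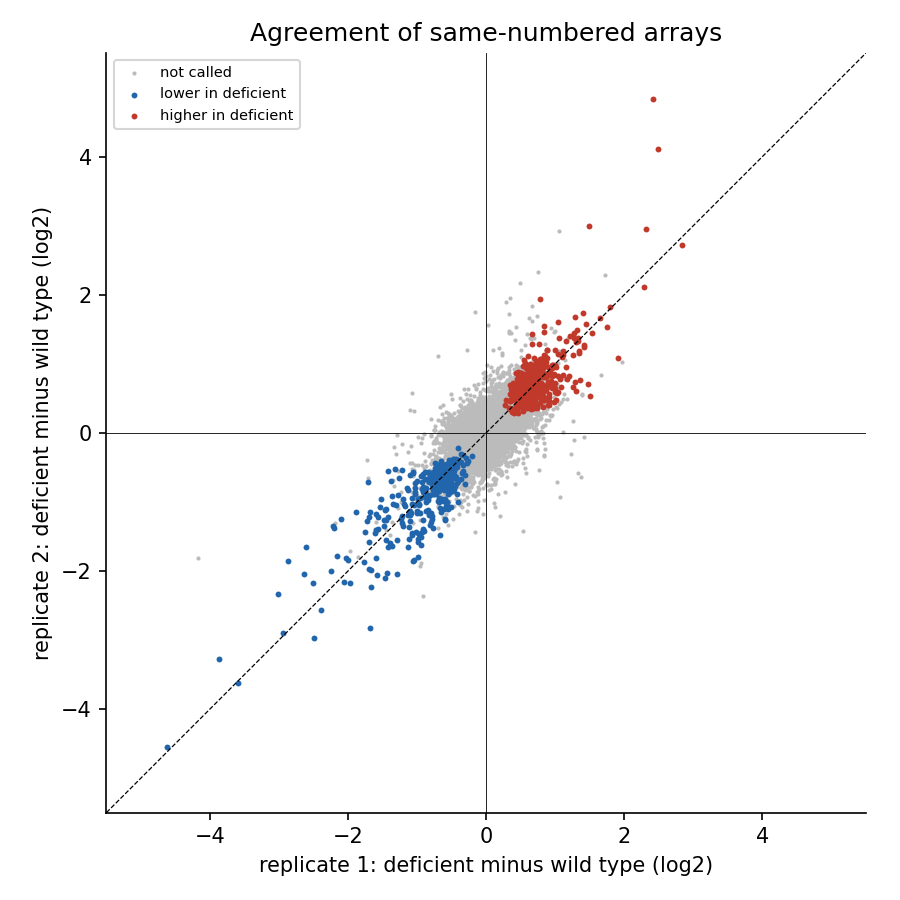
Difference of the arrays numbered 2 against that of the arrays numbered 1 (deficient mock minus wild-type mock, log2), 1 point for each of 12393 genes, with a dashed line where both are equal. All called genes lie below 0 on both axes or above 0 on both, and the most strongly lowered genes lie near the line.

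The calls changed with each array that was left out. Such a fit leaves a group of a single array that is assumed to vary like the others, and the cause of the changes was not tested. Without wild type 1, 21 genes were called higher and 74 lower. Without wild type 2 the counts were 182 and 121, without deficient 1 they were 41 and 62, and without deficient 2 they were 5 and 31. The balance of the calls moved with this, from 55.5% higher in the fit of all arrays to 13.9% without deficient 2. Over all gene lists together, the 90 members called higher and 62 called lower became 10 and 25 without wild type 1, 48 and 34 without wild type 2, 15 and 25 without deficient 1, and 2 and 16 without deficient 2. Genes called in the main fit and in all 4 of these fits numbered 27, of which 4 were higher and 23 lower.

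Interleukin-10 gave the largest decrease. Il10, a cytokine that restrains immune responses and that differentiated helper cells secrete, read 8.32 and 8.01 in wild-type arrays 1 and 2 and 3.69 and 3.47 in deficient arrays 1 and 2. The difference was -4.59 (SE 0.18, adjusted p = 0.000218 in limma). Both deficient readings lay below the lower quartile of their arrays, which was between 3.98 and 4.16 over the 6 arrays, where a faint transcript and an absent one give like values. In such bulk RNA, fewer cells of a kind and less RNA per cell cannot be told apart.

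Transcription factors of effector cells were among the stable decreases. Prdm1, which encodes Blimp-1, a repressor that drives terminal differentiation of lymphocytes, read 7.45 and 7.04 against 5.20 and 5.04, a difference of -2.13 (SE 0.18). Batf, an AP-1 family factor needed for effector T cells, read 10.26 and 9.84 against 8.52 and 8.57 (difference -1.50, SE 0.14). Nfil3, a leucine zipper factor that acts on cytokine genes, read 10.19 and 10.22 against 8.44 and 8.79 (difference -1.59, SE 0.13). In each of the 3 the lowest wild-type array lay more than 1 log2 unit above the highest deficient array. Epas1, the hypoxia factor HIF-2alpha, read 7.23 and 7.07 against 4.59 and 5.03, a difference of -2.34 (SE 0.18). Adjusted p-values of these 4 genes lay between 0.00208 and 0.00402 in limma.

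Surface receptors made up a second group. Cxcr4, the receptor for the chemokine CXCL12, fell by 1.83 on the log2 scale (SE 0.13), from 8.50 and 8.73 to 6.81 and 6.76. Ctla4, an inhibitory receptor that competes with CD28, read 10.51 on both wild-type arrays and 9.27 and 9.26 on the deficient ones. Il7r, the interleukin-7 receptor chain that keeps naive and memory T cells alive, read 10.94 and 10.74 against 9.49 and 9.47. Replicates of both genes lay far closer to each other than the groups did, with differences of -1.25 (SE 0.08) and -1.36 (SE 0.09). Slamf7, a receptor of the SLAM family, read 7.99 and 8.04 against 6.40 and 6.23. Sdc4, a heparan sulfate proteoglycan of the cell surface, read 7.20 and 7.76 against 4.70 and 4.80, while its other probe set differed by -0.46. Slc2a3, the glucose transporter GLUT3, read 12.40 and 12.48 against 10.81 and 11.30, a difference of -1.39 (SE 0.14).

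Protease inhibitors held some of the largest decreases. Ctla2b and Ctla2a, neighbouring genes for inhibitors that resemble cathepsin propeptides, differed by -3.60 (SE 0.17) and -2.34 (SE 0.12). Ctla2b read 9.04 and 8.88 against 5.45 and 5.26, and Ctla2a read 11.67 and 11.56 against 9.16 and 9.38. Their sequences are alike, and cross-matching of their probes was not tested. Serpinf1, a secreted serpin known as pigment epithelium-derived factor, read 10.18 and 9.80 against 6.31 and 6.53, and its second probe set differed by -1.92. Cst7, a cystatin of cytotoxic cells, read 11.41 and 11.27 against 10.29 and 9.90. Of the 18 protease inhibitor genes measured, these 4 fell and 1 rose, Itih5, a stabiliser of extracellular matrix, which read 8.72 and 9.37 against 10.36 and 11.04.

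The remaining stable decreases were of mixed function. Gem, a small GTPase that binds calcium channels, read 6.99 and 6.87 against 4.05 and 3.97, the deficient values again near the lower quartile. Cyp11a1, the enzyme that begins steroid synthesis from cholesterol, read 9.33 and 9.66 against 7.16 and 7.87. Mgll, which breaks down monoacylglycerols, read 8.24 and 8.55 against 6.24 and 6.72. All 3 differed by more than 1 between every deficient and every wild-type array. Dusp16, a phosphatase of MAP kinases, differed by -1.68 (SE 0.19) and Casp6, an executioner caspase, by -1.53 (SE 0.13). Ighm, the immunoglobulin mu chain, fell by 1.02 (SE 0.10) on its brightest probe set, but its other 10 probe sets ranged from -1.04 to 0.23. Arrb1, Glrx and Lgmn, named to complete the count, differed by -1.51, -1.50 and -1.38.

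The 4 stable increases were Drc1, Ms4a4c, Rexo2 and Ms4a4b. Drc1, a component of the dynein regulatory complex of cilia, read 4.35 and 4.25 in wild type and 7.18 and 6.98 in deficient cells, a difference of 2.78 (SE 0.17, adjusted p = 0.000544 in limma). Rexo2, an oligoribonuclease that clears short RNAs, chiefly in mitochondria, read 9.39 and 9.25 against 11.18 and 11.07 (difference 1.81, SE 0.10). Groups were separated by more than 1 log2 unit in both genes. Ms4a4c and Ms4a4b, adjacent members of the MS4A family of membrane proteins, rose by 2.19 (SE 0.13) and 1.25 (SE 0.12). Ms4a4c read 7.55 and 7.41 against 9.83 and 9.51, and its second probe set differed by 3.43. Ms4a4b, which is expressed in T cells, read 11.25 and 11.08 against 12.60 and 12.23. The other 9 measured genes of the family were not called, with differences between -0.23 and 0.38.

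**Figure D3:**
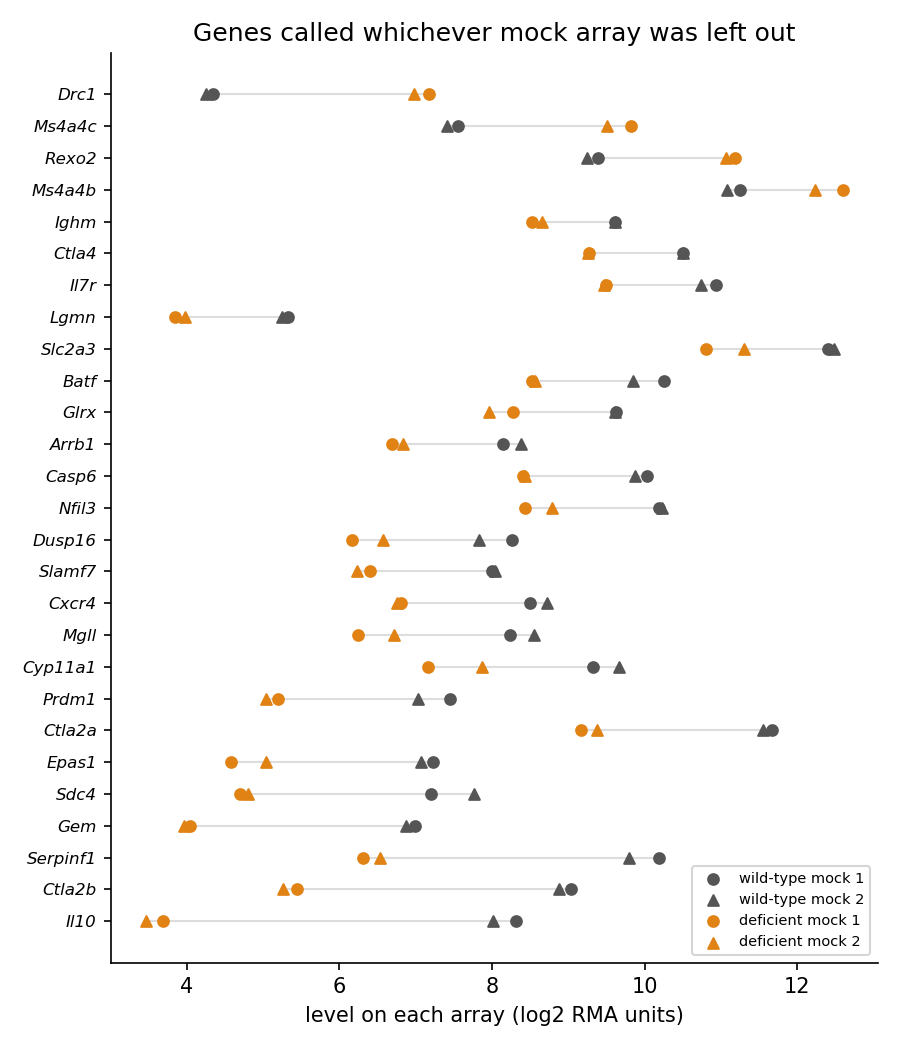
Level on each of the 4 arrays (log2 RMA units) of the 27 genes called in the fit of all arrays and in each fit that left out 1 mock array; circles are replicate 1, triangles replicate 2, grey wild-type mock and orange deficient mock. The orange and grey symbols do not overlap in any gene, and 23 genes are lower in deficient cells against 4 that are higher.

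Genes of the T helper 2 program, the cytokines and factors of responses to worms and allergens, held several decreases. Of 17 measured, 8 were called lower and 0 higher, with a median of -0.74 beside -0.03 over all genes. Beside Il10 and Nfil3 they were Il4ra, Il24, Il13, Il5, Il4 and Gata3, the last 4 named to complete the count. Il13, a cytokine that induces mucus production, read 7.55 and 8.90 against 5.86 and 6.08. Il4, the cytokine that directs this lineage, read 9.93 and 10.23 against 7.71 and 8.87. Il5, which recruits eosinophils, read 4.71 and 5.46 against 3.71 and 3.92, with both deficient readings below the lower quartile. In all 3 the 2 groups did not overlap, although the wild-type arrays of Il13 and the deficient arrays of Il4 differed by more than 1. Gata3, the master factor of the lineage, read 9.94 and 10.29 against 9.20 and 9.56, a difference of -0.74 (SE 0.15, adjusted p = 0.0392 in limma). Il4ra, the receptor chain for interleukins 4 and 13, differed by -0.84 (SE 0.12), and Il24 by -2.11 (SE 0.33). The list held 5 calls without wild type 1, 4 without wild type 2, 2 without deficient 1 and 3 without deficient 2.

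The T helper 1 program, which serves defence against intracellular microbes, held 2 calls, both lower. Of its 15 measured members 9 lower and 3 higher had an unadjusted p under 0.05, beside 8 lower and 0 higher of the 17 T helper 2 genes, and the median was -0.48. Stat4, which carries the interleukin-12 signal, read 9.0 and 9.05 against 8.15 and 8.12 (difference -0.89, SE 0.10, adjusted p = 0.00811 in limma). Il12rb2, a chain of the interleukin-12 receptor, differed by -1.09 (SE 0.17). Both transduce the cytokine that starts this lineage. Ifng, the signature cytokine, read 5.90 and 5.29 against 4.87 and 4.34 and was not called (difference -0.99, SE 0.25, adjusted p = 0.0678). Tbx21, the master factor T-bet, read 8.94 and 8.93 against 8.83 and 8.38 and was not called either (adjusted p = 0.359). The other lineages gave few calls. Among 17 regulatory T cell genes Ctla4 and Entpd1 (the ectonucleotidase CD39, difference -1.45, SE 0.26) were lower and Nrp1 (neuropilin 1, difference 1.10, SE 0.20) higher. Foxp3, the regulatory T cell factor, read between 3.45 and 3.89 on all 4 arrays, below the lower quartile, in cells sorted without CD25. Of 18 T helper 17 and follicular helper genes Batf and Bcl6 were lower. Bcl6, the follicular helper factor, read 6.43 and 5.45 against 4.73 and 4.22, and its difference of -1.46 became -0.97 without wild type 1.

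In cytokine signalling through the common gamma chain and in the JAK and STAT families, some mRNAs of receptors and STAT proteins fell and interleukin-2 mRNA rose. Of 20 measured members of this pathway and of the JAK and STAT families, 6 were called lower, 1 higher and 13 not, with a median of -0.24. The 6 were Il7r, Stat4, Stat5b, Stat5a, Stat3 and Il21r, the last named to complete the count. Stat5a read 8.82 and 8.67 against 8.12 and 8.17, and Stat5b read 9.31 and 9.32 against 8.79 and 8.78. Both carry signals of interleukins 2 and 7 and differed by -0.60 (SE 0.10) and -0.53 (SE 0.09). Stat3, which carries interleukins 6 and 21, differed by -0.70 (SE 0.13). Il2, the T cell growth factor itself, read 5.02 and 5.39 in wild type and 7.34 and 8.34 in deficient cells (difference 2.63, SE 0.54, adjusted p = 0.0379). The deficient arrays were a full log2 unit apart, and Il2 was not called in any of the 4 fits without 1 array. None of the 13 SOCS and phosphatase genes that damp these signals was called in limma, where 5 had an unadjusted p under 0.05. Without 1 array the pathway held 1 or 2 calls.

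Activation genes gave a mixed picture. Of 27 immediate early genes, which follow receptor stimulation within minutes to hours, 4 were lower and 2 higher. Junb, an AP-1 subunit, read 9.99 and 9.88 against 8.99 and 9.18, and Btg2, an antiproliferative gene, read 9.70 and 9.60 against 8.63 and 8.15. The others lower were Batf and, named to complete the count, Ier3 (difference -2.36, SE 0.44). Myc, the growth regulator, moved the other way and read 8.41 and 8.86 against 9.52 and 9.98 (difference 1.12, SE 0.21, adjusted p = 0.0303 in limma). Nr4a1 (Nur77), also named to complete the count, rose by 0.68 (SE 0.13). Among 18 genes of NF-kappaB signalling Nfkbiz, an atypical nuclear inhibitor, rose by 1.35 (SE 0.13), from 7.15 and 7.39 to 8.57 and 8.67. Bcl3, another such inhibitor, and Tnfaip3, the deubiquitinase A20, fell by 0.87 (SE 0.18) and 0.71 (SE 0.15). In T cell receptor signalling 1 of 26 genes was called, the kinase Fyn (difference 0.37, SE 0.08, adjusted p = 0.0499), a share below the background of all genes.

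Genes of DNA replication were uniform in direction. All 40 measured members had a positive difference, from 0.16 to 0.88 with a median of 0.57. In 39 the groups did not overlap, beside 49.9% of all genes in either direction. Of the 40 members 24 were called higher and 0 lower, beside 3.16% and 2.53% of all genes. Mcm3 and Mcm7, subunits of the replicative helicase, rose by 0.76 (SE 0.10) and 0.50 (SE 0.07). Mcm3 read 9.52 and 9.74 against 10.34 and 10.43, and Mcm7 read 10.94 and 10.99 against 11.42 and 11.50. Rrm1 and Rrm2, the subunits of ribonucleotide reductase that makes deoxynucleotides, rose by 0.63 (SE 0.08) and 0.58 (SE 0.08). In Mcm7 and Rrm1 the difference was several times the gap between replicates. Replicates lay farther apart over all 40 members, whose median level was 8.24 and 8.56 in wild type and 8.95 and 9.19 in deficient cells. The count rests on 3 of the 4 arrays: 22 members were called without wild type 2, but 1 without deficient 1 and 0 without wild type 1 or deficient 2, while the list's median stayed between 0.45 and 0.71.

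Mitosis and G1 genes followed with fewer calls. Of 35 mitotic genes 5 were called higher and 0 lower (median 0.34), among them Cdk1, the mitotic kinase (9.44 and 9.55 against 9.98 and 10.03), Tpx2, a spindle factor, Plk1, a mitotic kinase, and Prc1, a midzone protein. The fifth was Mad2l1, of the spindle checkpoint, named to complete the count. Their differences ranged from 0.50 to 0.60, and none of the 35 was called without wild type 1 or either deficient array. Of 19 G1 cyclin and E2F genes 6 were higher and 1 lower. Ccne2, the cyclin of S phase entry, read 6.03 and 6.62 against 7.50 and 7.33, and E2f8, an atypical E2F, read 7.53 and 7.76 against 8.61 and 8.43. Tfdp1, the dimer partner of E2F proteins, rose by 0.69 (SE 0.10), Cdk4 by 0.54 (SE 0.11) and E2f1 by 0.60 (SE 0.13). Rbl2, the pocket protein p130 that represses these genes in resting cells, was the member that fell (8.30 and 8.40 against 7.84 and 7.85). None of the 19 was called without wild type 1 or either deficient array, and 3 were without wild type 2. Of 19 cell cycle inhibitors 3 fell and 1 rose. Ccng2, a cyclin of arrested cells, fell by 1.04 (SE 0.13), Cdkn1b, the inhibitor p27, by 0.88 (SE 0.14) and Btg2 by 1.26 (SE 0.16), while Cdkn2c, the inhibitor p18, rose by 0.73 (SE 0.14). Cdkn1a, the inhibitor p21, read 9.79 and 10.20 against 9.26 and 9.82, so that the groups overlapped (difference -0.45, SE 0.20, adjusted p = 0.278 in limma).

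Promoters of the replication genes were searched for E2F letters because the members moved together. In windows of 300 bases, 250 before and 50 after the transcription start (RefSeq promoters, GRCm38.p6, both strands), any of TTTCCCGC, TTTGGCGC, TTTCGCGC and TTTGCCGC was found in 14 of the 34 replication genes with a promoter in the table (41.2%), in 9 of the 21 called ones (42.9%), in 1 of 28 mitotic genes, in 4.07% of the 9882 measured genes with a promoter and in 2.6% of all 27025 genes. The versions can overlap one another on opposite strands. Mitotic genes held TTTGAA or TTCGAA in 22 of 28 (78.6%, beside 21.7% of all and 17.3% of measured genes) and CCAAT in 23 of 28 (82.1%, beside 41.1% and 42.3%). CCAAT was also common in the replication genes, in 22 of 34 (64.7%) and in 16 of the 21 called ones (76.2%). The E2F letters were likewise found in 5 of 13 G1 cyclin and E2F genes (38.5%). The 250 bases before the start of 3 replication genes are shown with the E2F letters in capitals, as examples picked from the genes that hold them: Cdc6 (chr11:98907901-98908150, plus strand), Mcm7 (chr5:138171884-138172133, minus strand) and Uhrf1 (chr17:56304063-56304312, plus strand).
Cdc6: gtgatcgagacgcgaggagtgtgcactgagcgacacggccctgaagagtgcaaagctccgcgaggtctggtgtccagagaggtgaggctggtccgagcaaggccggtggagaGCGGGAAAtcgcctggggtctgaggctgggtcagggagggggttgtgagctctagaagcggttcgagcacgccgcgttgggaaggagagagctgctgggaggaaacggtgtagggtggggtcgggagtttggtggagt
Mcm7: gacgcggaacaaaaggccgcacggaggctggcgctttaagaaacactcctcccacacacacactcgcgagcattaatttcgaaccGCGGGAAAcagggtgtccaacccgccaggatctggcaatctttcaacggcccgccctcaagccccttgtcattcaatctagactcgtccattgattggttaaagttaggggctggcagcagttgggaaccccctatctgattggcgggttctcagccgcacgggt
Uhrf1: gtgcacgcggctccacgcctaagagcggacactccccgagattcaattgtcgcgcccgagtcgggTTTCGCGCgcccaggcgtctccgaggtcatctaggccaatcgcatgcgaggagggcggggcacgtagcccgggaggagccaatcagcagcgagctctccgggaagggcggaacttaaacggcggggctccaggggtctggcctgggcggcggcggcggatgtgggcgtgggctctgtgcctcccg
A match describes letters in the window and is no evidence of binding. Cdc6, a loading factor of the helicase, read 7.58 and 7.94 against 8.53 and 8.75, a difference of 0.88 (SE 0.15), and was chosen for printing after its values were seen, as was Uhrf1.

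Many ribosome biogenesis genes rose, whereas no ribosomal protein gene was called. Of 32 genes for processing and assembly of ribosomal RNA 17 were called higher and 0 lower, 31 had a positive difference and the median was 0.60. Nolc1, a nucleolar phosphoprotein, read 8.03 and 7.92 against 8.91 and 9.12. Gnl3 (nucleostemin) read 8.15 and 8.02 against 8.99 and 9.13. Fbl (fibrillarin) and Nop56, core proteins of small nucleolar ribonucleoproteins, rose by 0.66 (SE 0.09) and 0.83 (SE 0.12). The deficient arrays of all 4 genes lay above both wild-type arrays. Without wild type 1, 2 members were called, without wild type 2, 6, without deficient 1, 4, and without deficient 2, 0. None of the 23 measured genes for proteins of the cytoplasmic ribosome was called in limma, 0 had an unadjusted p under 0.05, and their differences stayed between -0.11 and 0.09. Their median level lay between 12.93 and 13.03 on the 4 arrays, far above the arrays' upper quartiles of 7.56 to 7.72. The part of this high level in the small differences was not tested.

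Other growth and protein handling genes had small, mostly positive differences. All 30 proteasome genes had a positive difference, with a median of 0.29, and 29 were non-overlapping, beside 49.9% of all genes in either direction. The 2 calls (6.67%) lay near the share of all genes (5.68%). They were the ATPase Psmc5 (8.86 and 8.86 against 9.31 and 9.49) and the catalytic subunit Psmb5. Without any 1 of the 4 arrays no proteasome gene was called. Chaperones gave 3 calls of 23, all higher (median 0.34): Hspd1, the mitochondrial chaperonin (difference 0.63, SE 0.12), Dnaja1 and Ahsa1, cochaperones of HSP70 and HSP90. In the respiratory chain Ndufa5 and Ndufa4, complex proteins of the inner mitochondrial membrane, rose by 0.74 (SE 0.13) and 0.50 (SE 0.09). These 2 calls (5.88% of the list) lay near the share of all genes (5.68%). Of the 34 members 31 had a positive difference, and the median was 0.17. Sterol and fatty acid synthesis had 1 call of 28, Scap, the escort of the sterol-sensing factors (difference 0.48, SE 0.10). None of 25 genes of the amino acid and ATF4 response was called in limma, where 4 had an unadjusted p under 0.05.

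Lysosomal, autophagy, glycolytic and hypoxia genes gave a few calls each, mostly decreases. Of 28 lysosomal genes 5 fell and 2 rose. The proteases Ctsd and Ctsb fell by 0.70 (SE 0.11) and 0.48 (SE 0.08), and Npc2, a cholesterol carrier, by 0.55 (SE 0.11), whereas Ctss, another protease, rose by 0.77 (SE 0.13). To complete the counts, Man2b1 and Atp6v0d1 also fell and Gusb also rose. None of the 28 was called lower without wild type 1 or without either deficient array. Of 22 autophagy genes Ulk1, the initiating kinase, and Map1lc3a, a membrane tag, fell by 0.82 (SE 0.12) and 0.77 (SE 0.15), and no autophagy gene was called without any 1 of the 4 arrays. Slc2a3 and Aldoc were the 2 of 20 glycolytic genes that fell, Aldoc, an aldolase, by 1.18 (SE 0.24). Of 24 genes of the hypoxia response 2 fell, Epas1 and Bnip3, a mitophagy receptor (10.71 and 11.03 against 9.92 and 10.37). In that list 21 members had a negative difference, with a median of -0.36, and ACGTG, the core of the hypoxia response element, was present in 13 of 20 promoters (65.0%, beside 21.8% of all genes and 26.9% of those measured). The same letters were present in 9 of 13 promoters of the G1 cyclin and E2F genes (69.2%), of which 6 rose and 1 fell.

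Type I interferon response genes, which cells switch on against viruses, had the largest median of the 48 gene programs examined, at 1.04. Of 36 measured members 11 were called higher and 0 lower, beside 3.16% and 2.53% of all genes, and 34 had a positive difference. In 34 the deficient arrays both lay above the wild-type arrays. Over all genes the groups did not overlap, in either direction, in 49.9%. Rtp4, an interferon-induced chaperone of receptors, read 5.24 and 4.38 against 7.73 and 8.49 (difference 3.30, SE 0.43, adjusted p = 0.0117 in limma), although its second, dim probe set differed by 0.11. Ifi27l2a, a small membrane protein, read 10.53 and 10.78 against 11.80 and 12.15. Ifit2, an antiviral protein that binds foreign RNA, read 6.91 and 6.57 against 7.79 and 7.77. Deficient array 2 was the higher one in Rtp4 and Ifi27l2a but not in Ifit2. Ifi35 rose by 1.10 (SE 0.16). Ifitm3, which blocks viral entry and had the largest increase of all genes, read 5.26 and 4.89 against 7.67 and 9.73, so that its deficient arrays were 2 log2 units apart (difference 3.62, SE 0.71). Ifit1, of the same family as Ifit2, read 4.22 and 3.68 against 5.71 and 6.67, with a wild-type mean below the lower quartile. Irf7, the amplifying factor of the response, read 6.89 and 6.56 against 7.68 and 8.50. Both genes were named after their values were seen, and in both deficient array 2 lay highest. The list held 4 calls without wild type 1, 5 without wild type 2, 5 without deficient 1 and 0 without deficient 2, and its median ranged from 0.73 to 1.32 over these fits.

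Genes induced chiefly by interferon gamma gave no calls. None of the 8 interferon-inducible GTPases (differences -0.38 to 0.34) and none of 17 antigen presentation genes (-0.54 to 0.38) was called in limma, with 0 and 4 of them at an unadjusted p under 0.05. The letters AAANNGAAA, the core of the interferon-stimulated response element on either strand, was found in 16 of 24 interferon response genes with a promoter in the table (66.7%), in 5 of the 9 called ones (55.6%), in 6 of 6 interferon-inducible GTPases, in 10.5% of measured genes and in 12.1% of all genes. The 250 bases before the start of Ifit1 (chr19:34640639-34640888, plus strand) and Ifit3 (chr19:34583279-34583528, plus strand) are shown with the matches in capitals, since each holds 2.
Ifit1: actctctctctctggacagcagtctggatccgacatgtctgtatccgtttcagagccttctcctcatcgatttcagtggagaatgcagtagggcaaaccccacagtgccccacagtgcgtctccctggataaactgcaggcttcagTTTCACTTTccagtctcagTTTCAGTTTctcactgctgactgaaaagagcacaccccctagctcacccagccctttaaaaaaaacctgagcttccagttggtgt
Ifit3: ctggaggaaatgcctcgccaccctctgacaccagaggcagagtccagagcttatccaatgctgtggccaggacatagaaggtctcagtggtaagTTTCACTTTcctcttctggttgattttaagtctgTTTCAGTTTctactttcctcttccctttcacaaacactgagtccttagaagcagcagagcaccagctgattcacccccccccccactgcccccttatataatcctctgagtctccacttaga
Ifit3, also of the IFIT family and named after its values were seen, read 4.52 and 4.47 against 5.22 and 5.56, a difference of 0.89 (SE 0.17).

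**Figure D4:**
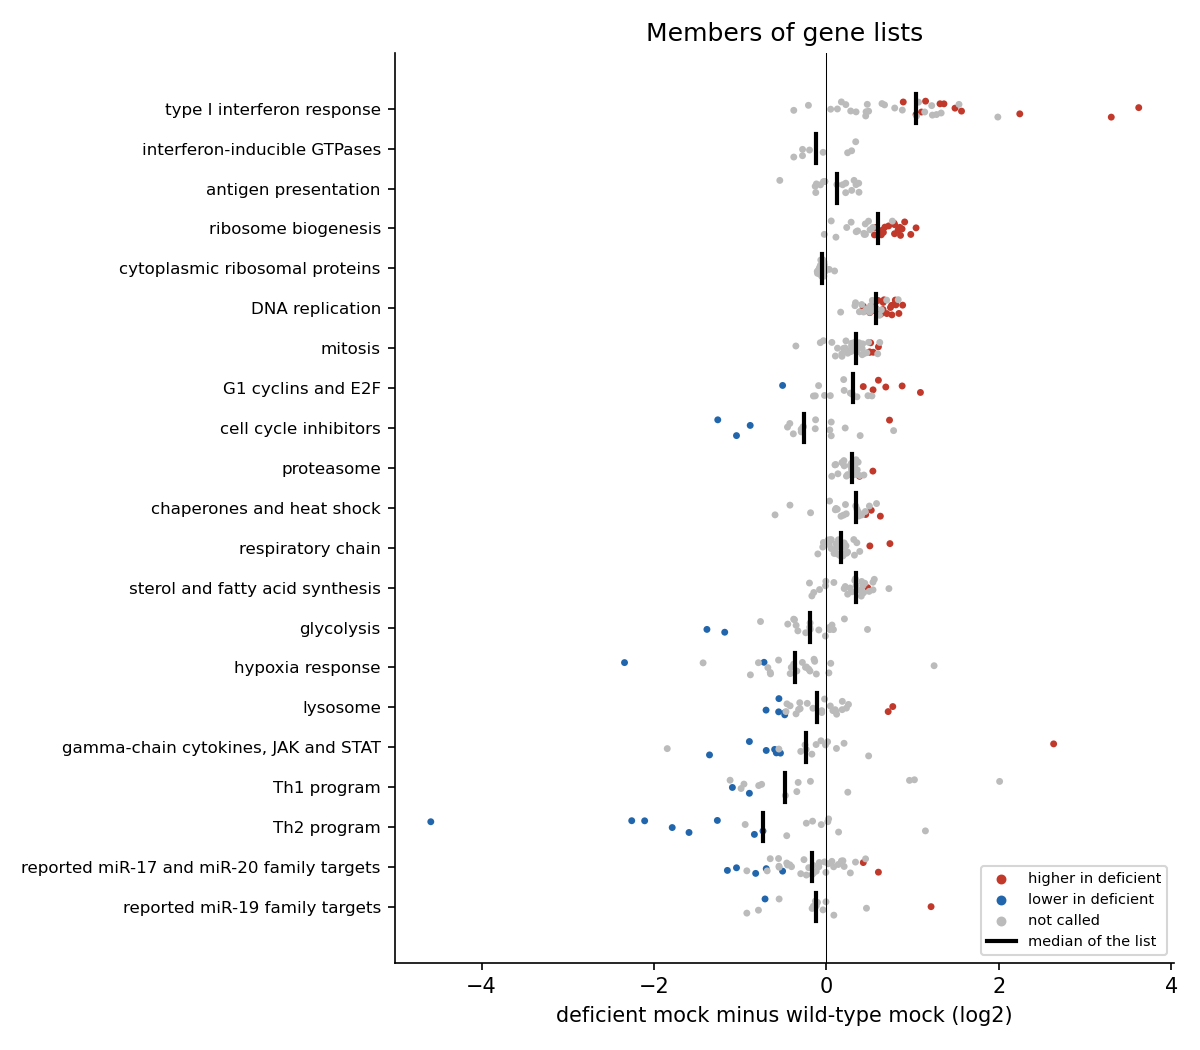
Difference between the groups (deficient mock minus wild-type mock, log2) for every measured member of 21 gene lists, 1 point a gene, red where called higher, blue where called lower and grey where not called, with a black bar at each list's median. The DNA replication and ribosome biogenesis members lie almost wholly right of 0, the interferon response spreads furthest right, the T helper 2 program spreads left, and the ribosomal proteins stay close to 0.

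Genes reported in other work as targets of the deleted microRNAs did not rise as a group. Of 39 measured targets of the miR-17 and miR-20 seed family, 2 were called higher and 5 lower, with a median of -0.17 beside -0.03 over all genes. E2f1 and Rbl1, the pocket protein p107, were higher. Txnip, an inhibitor of thioredoxin and glucose uptake, read 9.82 and 9.72 against 8.71 and 8.53, and with Ccng2, Ulk1, Stat3 and Rbl2 it made up the 5 that fell. Without deficient 2 none of the 39 was called, and without wild type 1, wild type 2 or deficient 1 the calls were 2, 2 and 4, all lower. Bcl2l11, the proapoptotic protein BIM, read 9.23 and 9.08 against 8.61 and 7.85 (difference -0.92, SE 0.22, adjusted p = 0.0571), and without deficient 1 it was called at -1.30 while without deficient 2 it stood at -0.55. Tgfbr2, the TGF-beta type II receptor, read 9.43 and 9.54 against 9.09 and 8.79 (difference -0.55, SE 0.13, adjusted p = 0.0595). Creb1, a cyclic AMP response factor, read 6.25 and 6.07 against 6.30 and 6.15, with overlapping groups. All 3 were thus not called in limma, and the first 2 lay below wild type on both deficient arrays. Of 14 miR-19 targets Rnf11, a ubiquitin ligase adaptor, rose (6.71 and 6.95 against 7.77 and 8.32, difference 1.21, SE 0.22) and Tnfaip3 fell. Of 20 targets of miR-92 and miR-18 Dusp10, a phosphatase of stress kinases, fell (8.54 and 8.51 against 7.53 and 7.08).

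TGF-beta signalling, a pathway that the cluster is known to act on, gave 3 calls of 29, all lower. Tgfb3, a ligand, read 7.02 and 6.32 against 4.62 and 3.75 (difference -2.48, SE 0.34). Id2, a target gene that opposes E proteins, read 11.48 and 11.25 against 10.56 and 9.99. Ltbp3, which tethers the latent ligand, read 6.44 and 7.09 against 5.68 and 5.71. These 3 genes fell, while the other 26 measured members, receptors and SMAD proteins among them, were not called. The median of the list was -0.16, beside -0.03 over all genes, and ranged from -0.27 to -0.08 when 1 array was left out. In the pathway of the BCL-2 family and caspases Casp6 was the 1 call of 21, and none of 16 p53 target genes was called in limma, where 4 had an unadjusted p under 0.05. The microRNA machinery gave 2 decreases, Tarbp2, a partner of Dicer (9.26 and 9.50 against 8.39 and 8.49), and Ddx17, a helicase of the processing complex, and 1 increase, the nuclease Xrn2, among 17 genes.

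Of 40 measured genes beside the cluster's host gene on chromosome 14, 20 on each side, 1 was called, Dis3, a catalytic subunit of the exosome, which rose by 0.82 (SE 0.12). This share of 2.5% lay below that of all genes, and 11 of the 40 were below the lower quartile in both groups.

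The markers of the sorted cells and of other cells were checked next. Cd4 read between 8.99 and 9.24 and Cd3e between 9.79 and 10.24 on the 4 arrays, while Cd8a stayed between 4.49 and 4.60. Of 10 CD4 T cell markers Thy1 fell (difference -0.73, SE 0.10). Of the markers of other cells, Ighm among 10 for B cells and Fcgr3 among 15 for macrophages fell, and Ctss among those 15 rose. Fcgr3, a receptor for the Fc part of antibodies, read 7.57 and 7.96 against 6.34 and 6.65. The summed B cell level was 9.92 to 9.95 in wild type and 9.17 to 9.24 in deficient cells, and the summed macrophage level 9.91 to 10.06 and 10.23 to 10.28 (log2 of the sum). The members did not move together. Of the 10 B cell markers 5 had a positive and 5 a negative difference. Of the 15 macrophage markers 4 had a positive and 11 a negative one (median -0.16), and 7 were below the lower quartile in both groups. For CD8 T cells the sums were 8.39 to 9.99 and 7.96 to 8.12, and for natural killer cells 9.40 to 10.47 and 8.88 to 9.27, with 0 calls and 1 unadjusted p under 0.05 in each list in limma. Gzma, a granule protease on both of those lists, read 9.58 and 6.53 against 5.42 and 4.71 and was not called (adjusted p = 0.0856). Cytotoxic granule genes held 2 decreases of 16, Ctsw, a cathepsin of killer cells (9.82 and 9.18 against 8.15 and 7.20), and Srgn, the granule proteoglycan. The part of these cells in the results was not tested.

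The control RNAs moved with the groups as well. The 24 probe sets of the polyadenylated spikes, added to the RNA before labelling, averaged 7.93 and 7.63 on the wild-type arrays and 7.40 and 7.02 on the deficient ones, a mean difference of -0.57 with all 24 lower and non-overlapping. The order of the 4 arrays by this mean places wild type 1 and deficient 2 at the ends, as did the differences between single arrays. The 18 probe sets of the hybridization spikes differed by -0.17 on average, with all 18 lower in the mean of the deficient arrays, and none was non-overlapping. The part of labelling in the results was not tested.

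Several probe sets of a gene mostly agreed. Of the 391 genes called higher 205 had more than 1 probe set, 78 of them with another set called in the same direction, 168 with all sets of the same sign, and 5 with a set of the opposite sign beyond 0.25 log2 units (Hbp1, Hnrnpab, Lta4h, Mdn1 and Spc25). Of the 313 called lower 145 had more than 1, and the 3 corresponding counts were 64, 135 and 0.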

How the data were processed

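Messenger RNA was measured on one-colour Affymetrix arrays in 6 samples, 2 in each of 3 groups. The deposited values were log2 intensities per probe set, made by the authors with RMA (background correction, quantile normalization, summary over probes), per the submitters' processing notes. The log base follows RMA's convention and the range of the values. Quantile normalization hides a change shared by most transcripts. Array medians lay between 5.69 and 5.75, and the 2 arrays a group limit the precision.

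One linear model over all 6 arrays was fitted with lmFit and contrasts.fit of limma 3.58.1, under R 4.3.3, and moderated by eBayes with a trend, with 3 residual and 4.75 prior degrees of freedom, on 22626 probe sets, with no filter on low values. Benjamini-Hochberg adjustment ran over all of them. The procedure was tested on simulated data. Genes were named from the platform annotation: 20380 probe sets had 1 symbol, 691 several and 1555 none here. The brightest probe set with 1 symbol stood for a gene (4956 of 12393 genes had several), and no gene's level was compared with another's. Microarray symbols were used as given, and RefSeq tables of GRCm38.p6 gave sequences and gene order, with 12369 genes matched by identifier.

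The comparison, its members and the 58 gene lists (48 programs, 10 sets of cell markers) were chosen with earlier results of these data known, from general knowledge of the genes. The text names up to 15 genes in each direction called in the fit of all arrays and in the 4 fits without 1 mock array, leaving out predicted genes and receptor segments, up to 4 called members of each list with the smallest p, a fixed set (Il10, Il2, Ifng, Foxp3, Tbx21, E2f1, Rbl2, Cdkn1a, Bcl2l11, Creb1 and Tgfbr2), and members that complete a small count. Others are said to be named after their values were seen. Lists are described by counts and medians without a set test. Alternatives changed the samples, normalization, filter, gene summary and spread model. Figures were drawn with matplotlib 3.10.9.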

Additional observations from a re-analysis of the deposited data

How the results depend on the processing

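With the replicate number as a block, 2516 probe sets were called higher and 1506 lower, 1547 and 957 genes, 71 genes at least 2-fold higher, and 241 and 170 list members. The labels do not say what the numbers share, and the deviations of same-numbered arrays correlated at 0.43 across genes. The block also called Tgfbr2 (adjusted p = 0.0104), Bcl2l11 (0.0093), Cdkn1a (0.0104) and Ifng (0.0022), and no named gene lost its call. It called 11 of the 15 T helper 1 genes and 9 of the 17 T helper 2 genes. Without a trend of spread on brightness the counts were 218 and 230 probe sets, 131 and 164 genes, and 30 and 34 list members. Without probe sets that can match several genes they were 365 and 285 probe sets, 252 genes higher and 56 list members higher, with fewer probe sets tested; of the named genes that kept a probe set, 80 stayed on their side of the threshold and 1 lost its call. Leaving out 1 array gave 7 to 557 probe sets higher and 51 to 391 lower, 5 to 338 genes higher and 31 to 273 lower, 5 to 67 and 30 to 111 genes at least 2-fold higher and lower, and 2 to 80 and 16 to 60 list members. Creb1 ranged from -0.028 without wild-type mock replicate 2 to 0.15 without wild-type mock replicate 1, with -0.014 without deficient mock replicate 1. The cause of these shifts was not tested. The leave-out fits also held fewer samples. The other planned settings (4 arrays alone, quantile normalization again, median centring, dim probe sets left out, 1 probe set or the mean of probe sets a gene, robust spread) kept each of these counts within 1.5 times. Of the 118 named genes, 13 lost their call with the 4 arrays alone, 10 with quantile normalization again, 7 with median centring, 22 with the mean of probe sets, 3 with robust spread and 48 without the trend, and 51 to 86 did when 1 mock array was left out. None of these but Creb1 changed sign, and the share of non-overlapping probe sets, 48.0%, lay between 48.0% and 53.8%. Faint probe sets limit what can be seen, since 0.382% of genes under a level of 4 were called.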

Other observations

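Gene groups outside the programs described above gave scattered calls. Among 31 chromatin modifiers Kdm5b, a histone demethylase, fell by 1.06 (SE 0.12), while Kat2a, an acetyltransferase, and Dnmt1, the maintenance DNA methyltransferase, rose by 0.80 (SE 0.13) and 0.45 (SE 0.09). Among 23 adhesion genes Itga6, the integrin alpha 6 chain, rose by 0.61 (SE 0.12) and Sdc4 fell. Among 13 receptors of the CD28 family and other inhibitory receptors Cd200 rose by 0.72 (SE 0.10), and Havcr2, the receptor TIM-3, fell with Ctla4, but read 4.16 and 4.38 against 3.65 and 3.59, near or below the lower quartile. Tnfrsf9, the costimulatory receptor 4-1BB, was the 1 call of 23 in the TNF family and fell by 0.81 (SE 0.17). Foxo1 and Satb1, factors of resting T cells, fell by 0.56 (SE 0.11) and 0.75 (SE 0.15) with Il7r among 13 naive and memory genes. Il16, a chemoattractant, was the 1 call of 16 chemokines (difference -0.54, SE 0.10). In calcineurin signalling Ppp3cc fell by 0.80 (SE 0.12) and Nfatc2ip rose by 0.51 (SE 0.10) among 16, and in the unfolded protein response Atf6 fell by 0.67 (SE 0.14) and Derl2 rose by 0.58 (SE 0.13) among 24.

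Some genes for secreted effector proteins differed by more than 1 on average between the groups and were not called in limma. They were picked after their values were seen. Lta, lymphotoxin alpha, read 6.45 and 7.52 in wild-type arrays 1 and 2 and 8.18 and 9.82 in deficient arrays 1 and 2 (difference 2.01, SE 0.59, adjusted p = 0.108). Il21 read 8.97 and 7.05 against 7.00 and 5.33 (difference -1.85, SE 0.87, adjusted p = 0.303). Csf2, the growth factor GM-CSF, read 3.69 and 4.43 against 4.03 and 6.38, so that the groups overlapped. Gzmb, granzyme B, read 12.11 and 11.51 against 10.72 and 10.04 (adjusted p = 0.0549). In Lta, Il21 and Gzmb the groups did not overlap with deficient array 2 the farthest from wild type.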
